A study of Mus musculus with 19 samples.

Results

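The mitochondrially encoded transfer RNAs mt-Tl1, mt-Tl2, mt-Tk, mt-Tm and mt-Tv of the mouse are described here across 19 libraries of RNA crosslinked to FMRP. They are 5 of the 49932 transcripts listed in any library. They were chosen from earlier results of the same data: their tag numbers changed little between libraries of very different size, and all 5 were higher relative to library size in the activated libraries at 30 min. The near-constant tag numbers and the 30 min contrast are therefore given as descriptions. No p-value is given for them, and the counts of calls at 30 min show how the members were chosen.

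FMRP is the RNA-binding protein encoded by Fmr1, the gene silenced in fragile X syndrome. In the Fmr1 cTag mouse, Cre recombinase switches on a tag on FMRP, and in these animals (genotype Camk2a-Cre x Fmr1 cTag) Cre is driven by the Camk2a promoter, active mainly in excitatory neurons of the forebrain. Acute slices of hippocampus were crosslinked with UV light after optogenetic activation, the CA1 region was dissected in buffer with cycloheximide, which stalls translating ribosomes, and RNA bound to tagged FMRP was purified and cloned (CLIP). The treatment was AAV-ChR2, a virus carrying a light-gated channel (opto), or AAV-Control (control), and the time after activation was 5 or 30 min, with 4 libraries in each of these 4 groups. The 3 noCre libraries are the background of the purification. Their labels repeat the genotype and cell type of the other libraries, and they were identified by title and treatment. All groups carry the Fmr1 cTag allele by their labels and share the cycloheximide treatment. The age and number of animals behind a library are not given in the sources used here, so p-values measure the spread between libraries, which may be technical.

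A mitochondrial tRNA brings one amino acid to the ribosome inside the mitochondrion. Mitochondrial DNA is transcribed into long RNAs, and most messenger and ribosomal RNAs in them are flanked by tRNAs, which are cut out to release their neighbours. FMRP is best known for binding cytoplasmic messenger RNAs on ribosomes, so mitochondrial tRNAs are not among its classical targets.

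mt-Tl1 (TrnL1, transcript ENSMUST00000082391) and mt-Tl2 (TrnL2, ENSMUST00000082417) carry leucine and read different leucine codons. In the RefSeq annotation of GRCm38.p6, TrnL1 is the mitochondrial interval from 2676 to 2750, 75 bases long, directly between the large ribosomal RNA mt-Rnr2 and ND1, a subunit of complex I. TrnL2 lies at 11671 to 11741, 71 bases, overlapping the serine tRNA TrnS2 by 1 base and directly followed by ND5. mt-Tk (TrnK, ENSMUST00000082406) carries lysine and lies at 7700 to 7764, 65 bases, between COX2 and ATP8. mt-Tm (TrnM, ENSMUST00000082395) carries methionine for both the start and the inside of proteins, and lies at 3845 to 3913, 69 bases, next to ND2. mt-Tv (TrnV, ENSMUST00000082389) carries valine and lies at 1025 to 1093, 69 bases, directly between the ribosomal RNAs mt-Rnr1 and mt-Rnr2. All are genes of non-coding RNA, with no coding exon or UTR. The tables used here pair no Ensembl transcript identifier with a gene name, so names are those under which the transcripts were chosen, and the markers of CA1 neurons and other cell types could not be checked. How a tag was assigned to a transcript, how tags over a boundary between neighbouring genes were counted, and how tags matching nuclear copies of mitochondrial DNA were treated are not given in the sources used here.

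The 16 Cre-positive libraries held 20456 to 341445 tags, a 16.7-fold range, and the noCre libraries 887, 34 and 5557. The 30 min activated libraries were shallow, at 20456, 29396, 121972 and 41721 tags in replicates 1 to 4, against 81588 to 192471 in their controls. Activated libraries at 5 min held 84614 to 256727 tags, and their controls 40173 to 341445. Total tags were thus lower in activated than in control libraries in all 4 replicate pairs at 30 min. Library size and activation therefore cannot be told apart there, and the part of library size in each scaled result was not tested. In tissue libraries of this kind, fewer labelled cells and less RNA per cell cannot be told apart.

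The sum of the 5 tRNAs stayed within a narrow band of tags while library size ranged widely. It ran from 99 to 298 tags per Cre-positive library, a 3.01-fold range, and made up 3031 of 2137473 tags (0.142%). As a share of a library the sum was 0.948%, 0.493%, 0.0918% and 0.237% in the activated libraries at 30 min and 0.293%, 0.144%, 0.0982% and 0.0652% in their controls (replicates 1 to 4). At 5 min the shares lay between 0.0915% and 0.204% in activated and between 0.0782% and 0.346% in control libraries. At 30 min the highest shares were those of the shallowest libraries, activated replicates 1 and 2, and the highest at 5 min was that of the shallowest 5 min library, control replicate 2.

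mt-Tl1 was the most abundant member and had the narrowest range, as the ratio of its highest to its lowest Cre-positive library. It gave 67, 60, 52 and 55 tags in the activated and 79, 97, 60 and 57 in the control libraries at 30 min, and 80, 75, 98 and 62 in the activated and 94, 53, 61 and 113 in the control libraries at 5 min. The shallowest Cre-positive library, activated replicate 1 at 30 min, held more mt-Tl1 tags than activated replicate 3, which held 121972 tags in all. The groups overlapped. mt-Tl2 gave 42, 17, 11 and 4 tags in the activated and 48, 30, 18 and 8 in the control libraries at 30 min, and 36, 19, 44 and 20 in the activated and 43, 21, 22 and 47 in the control libraries at 5 min. At 30 min its replicate 1 was the highest of both groups and its replicate 4 the lowest. Over all Cre-positive libraries mt-Tl2 had the widest range of the 5, as the same ratio.

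mt-Tk gave 47, 22, 15 and 16 tags in the activated and 60, 64, 22 and 24 in the control libraries at 30 min, and 35, 21, 31 and 23 in the activated and 37, 20, 22 and 31 in the control libraries at 5 min. Control replicates 1 and 2 at 30 min stood above every other library. mt-Tm gave 24, 25, 23 and 14 tags in the activated and 38, 49, 21 and 19 in the control libraries at 30 min, and 49, 31, 58 and 46 in the activated and 60, 31, 31 and 58 in the control libraries at 5 min. The activated libraries at 30 min were all below the lowest value at 5 min, 31 tags. mt-Tv gave 14, 21, 11 and 10 tags in the activated and 14, 37, 12 and 10 in the control libraries at 30 min, and 35, 24, 40 and 22 in the activated and 33, 14, 25 and 49 in the control libraries at 5 min. Control replicate 2 at 30 min, with 37 tags, stood apart from the other 3 of its group at 10 to 14.

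**Figure D1:**
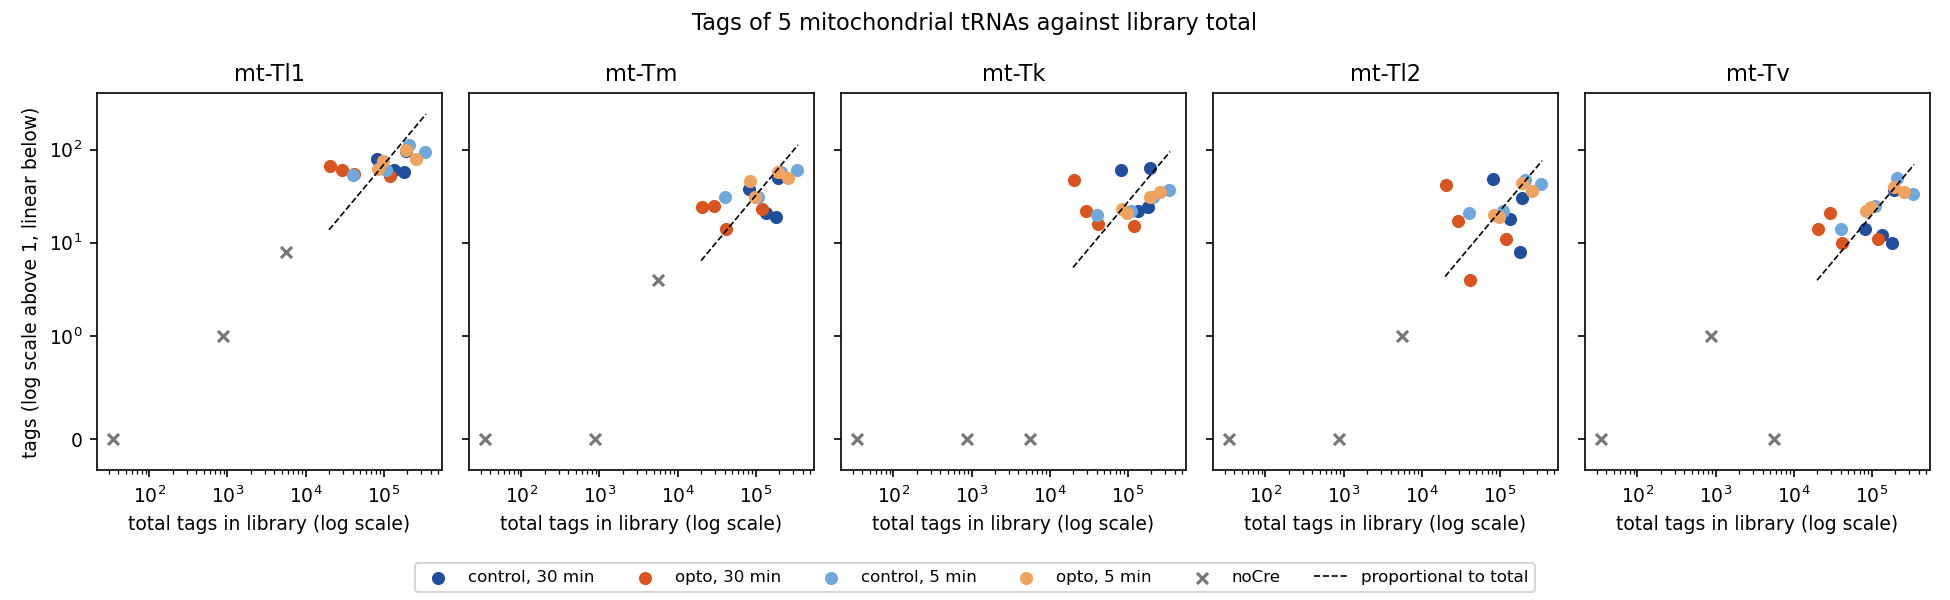
Tags of each of the 5 tRNAs (vertical, log scale above 1 and linear below) against total tags of the library (horizontal, log scale) in all 19 libraries, coloured by group; the dashed line is where tags in proportion to the total would lie. The points of the 16 Cre-positive libraries run flatter than the line: mt-Tl1 stays at 52 to 113 tags from 20456 to 341445 total tags.

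Growth with library size was summarised as the slope of log2(tags + 0.5) on log2 total tags, where 1 means tags in proportion to the total and 0 means no change. Over the 16 Cre-positive libraries the slope was 0.11 (SE 0.14) for mt-Tk, 0.17 (SE 0.07) for mt-Tl1, 0.23 (SE 0.21) for mt-Tl2, 0.31 (SE 0.12) for mt-Tm and 0.34 (SE 0.14) for mt-Tv. All 5 passed the filter on low counts, which left 2871 transcripts. The other 2866 had a median slope of 1.02, with 0.72 to 1.38 between the 5th and 95th percentile. Among the 983 of them with at least as many mean tags as mt-Tv, the least abundant member, the median was 1.01 and the lowest 0.41. None of these 983 had a slope below that of mt-Tv, and 6 of all 2866 did. The cutoff was the mean of mt-Tv itself, 23.19 tags. ENSMUST00000082410, with a mean of 22.75 tags and a slope of 0.33, fell just under it. The transcripts just outside the members among the 983 had slopes of 0.406 and 0.411.

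**Figure D2:**
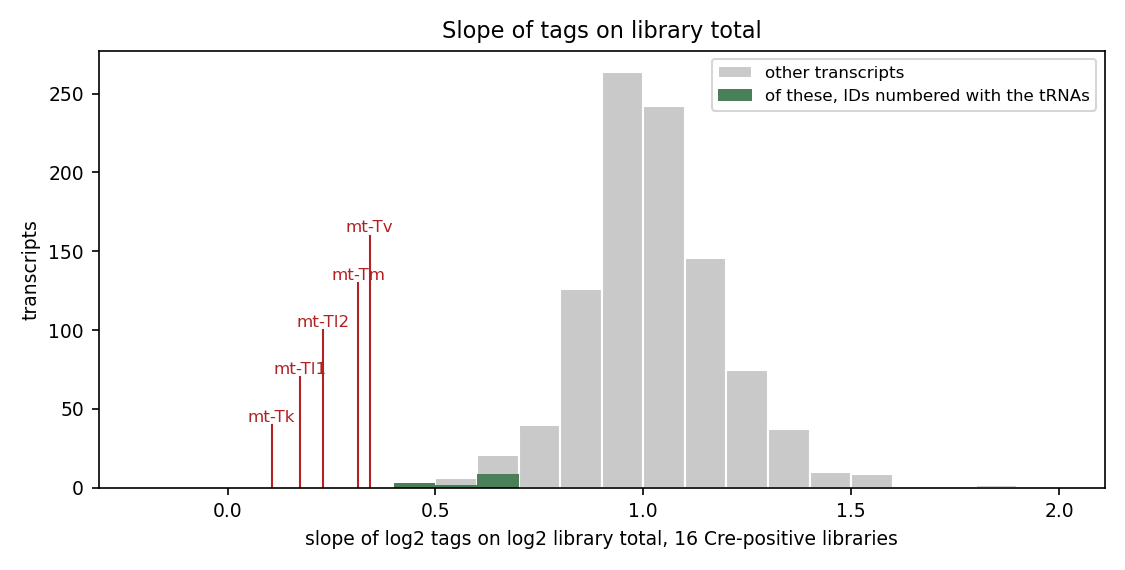
Histogram of the slope of log2 tags on log2 library total (horizontal) over the 983 other transcripts as abundant as the members (vertical, number of transcripts; green, those whose identifiers are numbered in 1 run with the members), with the 5 tRNAs as red lines whose heights carry no value. The members lie between 0.11 and 0.34, and the others begin at 0.41, with a median of 1.01. The cutoff on abundance is the mean of mt-Tv, the least abundant member.

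Range and spread describe the same tags in other terms and are not separate evidence. The highest library held 2.17 times the tags of the lowest for mt-Tl1, 4.27 times for mt-Tk, 4.29 times for mt-Tm and 4.9 times for mt-Tv, and 12 times for mt-Tl2. The median ratio was 24.0 over the 956 comparably abundant transcripts with no library at 0. Of these, 90 had a lower ratio than mt-Tl2, whose lowest library held 4 tags, and 0 had a lower ratio than any other member. The variance of tags over their mean, which is 1 for counting error alone, was 4.94 for mt-Tl1 and 6.46 to 7.94 for the others, against a median of 20.1 over the 983. The members thus varied by more than counting error. mt-Tl2 was above mt-Tl1 in both measures, at 7.94 against 4.94 in variance over mean. The wider gap in the ratio rests on the library of mt-Tl2 with 4 tags.

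The slopes differed between the times. In the 8 libraries at 5 min they were 0.31 for mt-Tl1, 0.32 for mt-Tk, 0.34 for mt-Tm, 0.47 for mt-Tl2 and 0.48 for mt-Tv. In the 8 libraries at 30 min they were 0.05, 0.03, 0.13, -0.11 and 0.04 in the same order. All 5 slopes were lower at 30 min than at 5 min. The 983 comparably abundant transcripts had a median slope of 0.97 at 5 min and 1.03 at 30 min. At 5 min 4 of them lay below mt-Tv and 3 below mt-Tl2, and at 30 min 1 lay below mt-Tm. For the other members at each time the count was 0. Less abundant transcripts lie outside the 983, and some of them were as flat at 30 min. ENSMUST00000082387 (mean 10.4 tags) had a slope of -0.13 there, ENSMUST00000082415 (7.1 tags) -0.07 and ENSMUST00000082410 (22.75 tags) -0.04. At 5 min their slopes were 0.74, 0.74 and 0.47. A slope near 0 at 30 min was therefore not particular to the members. The labels of the 5 min libraries call their files new, so the time and the round of deposition cannot be told apart. The difference in slope was not tested, since the near-constant tags chose the members.

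The members rose and fell together from library to library. Over the 16 Cre-positive libraries the Spearman correlation of tags between 2 members ran from 0.49 to 0.90 in the 10 pairs, with a median of 0.78, and that of CPM, tags scaled to a common library size with TMM factors, from 0.72 to 0.93, with a median of 0.84. The libraries of a pair are the same, and CPM also share the scaling of each library, so these values are a description. At 30 min replicate 1 of both groups was high and replicates 3 and 4 were low for mt-Tl2 and mt-Tk, in libraries whose totals did not follow that order.

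Per length, the order of the levels was mt-Tl1 at 96.9 tags per 100 bases (SD 25.3, n = 16 libraries), mt-Tm at 52.3 (SD 22.1), mt-Tk at 47.1 (SD 22.8), mt-Tl2 at 37.9 (SD 20.6) and mt-Tv at 33.6 (SD 17.8). mt-Tl1 was the highest per base in 16 of 16 libraries. The gap between each of the other neighbours in that order was less than their SD. Within libraries mt-Tm was above mt-Tk in 10 of 16, mt-Tk above mt-Tl2 in 13 of 16, and mt-Tl2 above mt-Tv in 6 of 16.

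In the makeup of the 5, mt-Tk and mt-Tm were the only members whose controls did not overlap between the times. mt-Tk was 21.3% ± 3.71 (SD, n = 4) of the 5 tRNAs' tags in the controls at 30 min and 17.2% ± 4.80 in the activated libraries, against 13.1% ± 1.81 in the controls at 5 min, where the activated libraries lay between 11.4% and 14.9%. The controls at 30 min, at 16.5% to 25.1%, did not overlap with the controls at 5 min, at 10.4% to 14.4%. mt-Tv went the other way, from 9.18% ± 3.11 in controls and 10.4% ± 3.01 in activated libraries at 30 min to 13.6% ± 2.93 and 14.1% ± 0.996 at 5 min, with ranges that overlapped between the controls. mt-Tm was 16.4% ± 0.889 and 16.1% ± 3.59 at 30 min and 20.9% ± 1.75 and 21.8% ± 3.50 at 5 min, in the same order. Its controls did not overlap between the times either. mt-Tl2 was 12.8% ± 5.59 in controls and 11.8% ± 7.33 in activated libraries at 30 min and 15.2% ± 1.08 and 13.6% ± 2.58 at 5 min, with ranges that overlapped. mt-Tl1 held between 37.3% and 44.5% on average in every group. These shares are of the 5 members alone and do not depend on library size through a scaling step, and they were not tested. They add up to a fixed whole, so mt-Tk and mt-Tm are not independent results. How far the shift of mt-Tm follows from that of mt-Tk was not tested. Other transcripts have no such share, so the non-overlap has no background beside it. The test of the same controls, given below, called neither member.

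The first comparison asks how FMRP-bound RNA differed 30 min after activation, and it helped choose the members. In unscaled tags the activated libraries mostly held fewer of these tRNAs than the controls of the same replicate number. The ratio of activated to control tags over the 20 combinations of member and replicate ran from 0.344 to 1.10 with a median of 0.709, and 17 of 20 were below 1. The ratio of library totals was 0.251, 0.153, 0.900 and 0.230 in replicates 1 to 4, so 17 of the 20 tag ratios lay above the ratio of totals. The sum of the 5 gave 0.812, 0.523, 0.842 and 0.839. In replicate 3, the only pair of nearly equal totals, that ratio was also below the ratio of totals.

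**Figure D3:**
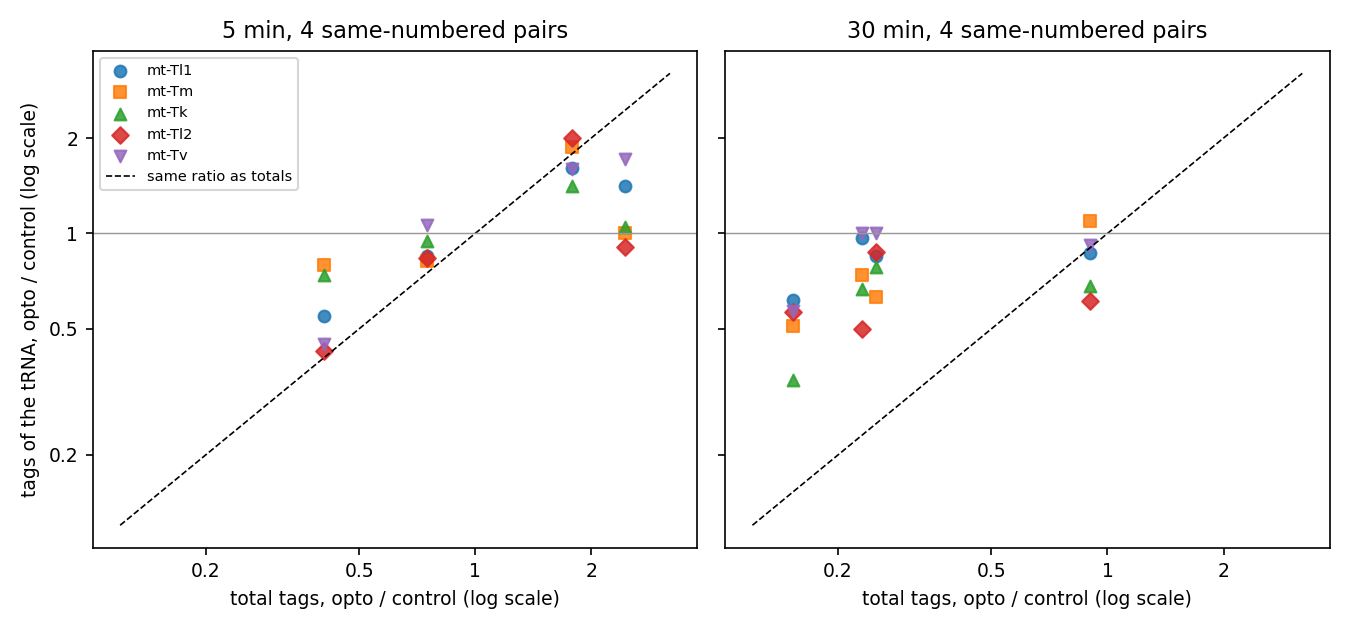
Ratio of activated to control tags of each tRNA (vertical, log scale) against the same ratio of total tags (horizontal, log scale) in the 4 same-numbered pairs at 5 min (left) and 30 min (right); the dashed line marks equal ratios. At 30 min 17 of 20 tRNA ratios are below 1 while 17 of 20 lie above the ratio of the library totals; at 5 min they scatter from 0.426 to 2.00.

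Scaled to library size, the sign was the opposite. mt-Tl1 had 5094, 2956, 634 and 1963 CPM in activated replicates 1 to 4 and 1499, 753, 661 and 470 CPM in the controls. Activated replicate 3 was below 3 of its 4 controls, and the groups overlapped. The fitted log2 fold change, activated over control, was 1.55 (SE 0.45) for mt-Tl1, 1.29 (SE 0.70) for mt-Tl2, 1.08 (SE 0.58) for mt-Tk, 1.14 (SE 0.51) for mt-Tm and 1.37 (SE 0.52) for mt-Tv. The median over all transcripts fitted was -0.02, and at least 99.2% of them lay below each member. For none of the 5 was every activated library above every control library, which was so for 1.32% of the 2871 transcripts. Activated was above its control in 4 of 4 replicate pairs for mt-Tv and mt-Tm, and in 3 of 4 for mt-Tl1, mt-Tl2 and mt-Tk.

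The fit of group means called 0 of the 5 members at an adjusted p of 0.05, where 0.0348% of transcripts were called. With the replicate number as a block it called 5 of 5, where 0.209% of transcripts, 6 in all, were called higher, and the log2 fold changes were 1.47 for mt-Tl1, 1.32 for mt-Tl2, 1.14 for mt-Tk, 1.27 for mt-Tm and 1.58 for mt-Tv. These calls are those that chose the members, so nothing is read from 5 of 5 beside that percentage. With log2 library total as a covariate the fitted values were -0.09 for mt-Tl1, -0.51 for mt-Tl2, -0.83 for mt-Tk, -0.25 for mt-Tm and 0.15 for mt-Tv, so 4 of the 5 changed sign. With both the block and the covariate they were 0.35, 0.23, -0.23, 0.09 and 0.71 in the same order. Neither fit with the covariate called any of the 5. The members were chosen for tags that changed little with the total, and totals differed with activation. These fits therefore do not test the part of library size.

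Activated replicate 1 at 30 min, the shallowest Cre-positive library, carried much of the difference for a pair of the members. Without it the fitted log2 fold change was 0.01 for mt-Tk and -0.14 for mt-Tl2, while mt-Tl1 kept 1.03, mt-Tv 1.02 and mt-Tm 0.67. That library held 3573 CPM of mt-Tk and 3193 CPM of mt-Tl2, and the other 3 activated libraries held 183 to 1084 CPM and 134 to 838 CPM. Control replicate 1 was also the highest of its group for both, at 1139 CPM of mt-Tk and 911 CPM of mt-Tl2.

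**Figure D4:**
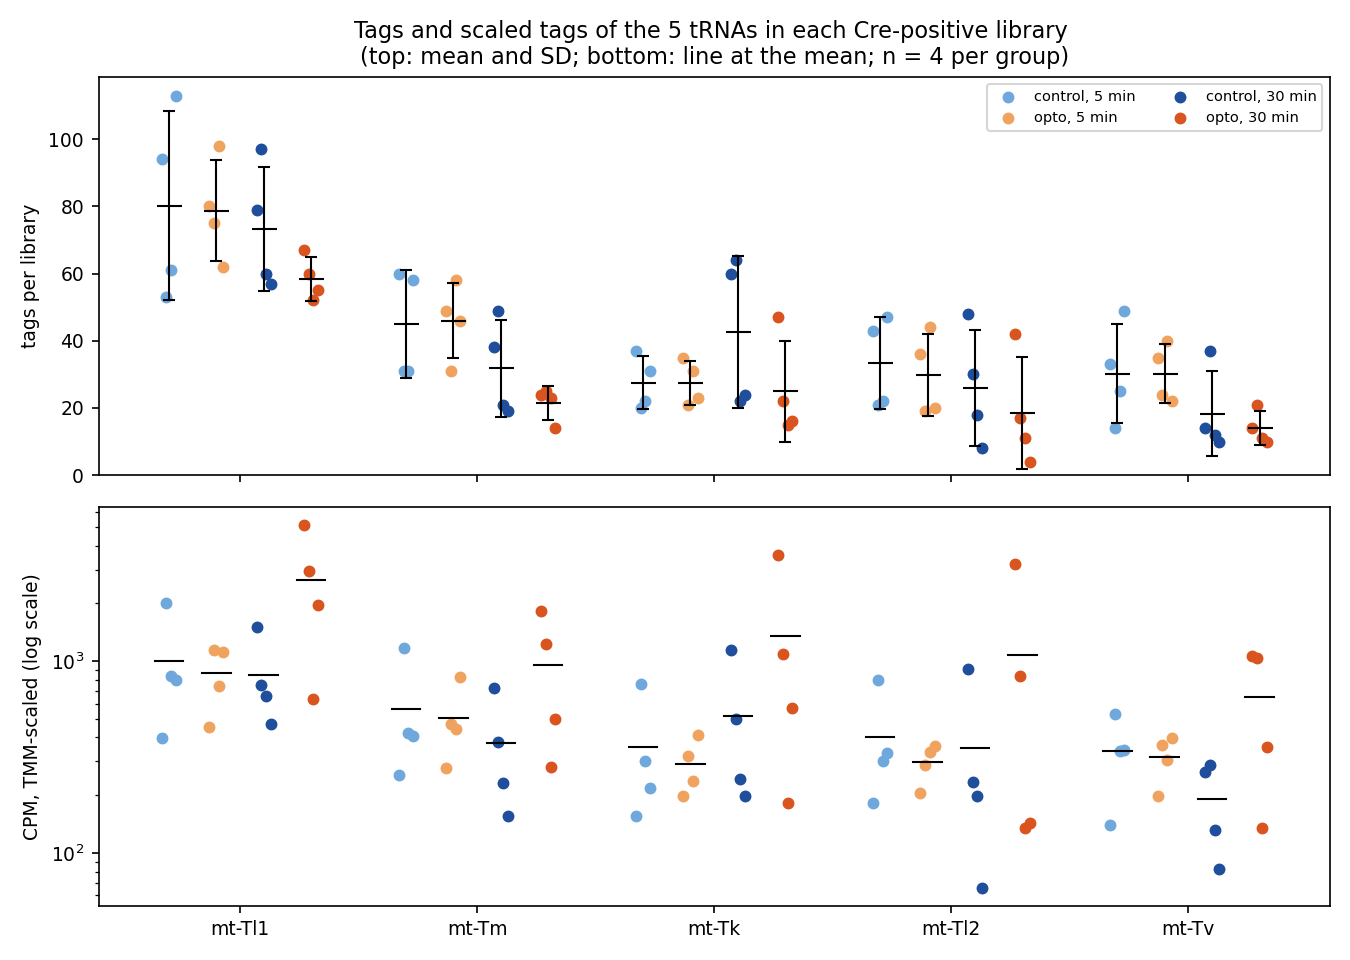
Tags (top, with mean and SD) and TMM-scaled CPM (bottom, log scale, line at the mean) of the 5 tRNAs in each of the 16 Cre-positive libraries, 4 per group. In tags the activated group at 30 min has the lowest mean of the 4 groups for every member, and in CPM the highest, with mt-Tl1 at 58.5 tags and 2662 CPM.

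At 5 min the activated and control libraries were not distinguished for any member. This contrast did not enter the choice of members, though tags in these libraries had been seen to vary little. The log2 fold change, activated over control, was -0.07 (SE 0.44) for mt-Tl1, -0.16 (SE 0.63) for mt-Tl2, 0.02 (SE 0.58) for mt-Tk, 0.06 (SE 0.44) for mt-Tm and 0.05 (SE 0.42) for mt-Tv, each with an adjusted p of 1.00 by edgeR's quasi-likelihood test. Of the 2871 transcripts 0% were called at 5 min by edgeR, and DESeq2 and limma called 0 as well, with 53 at an unadjusted p under 0.05 by edgeR. The standard errors of these group-mean values, 0.42 to 0.63 on the log2 scale with 4 libraries a group, limit what could be detected. Under the replicate block the standard errors at 5 min were smaller, 0.21 to 0.26, and no member was called.

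Unscaled tags at 5 min showed no common direction. The ratio of activated to control tags ran from 0.426 to 2.00 over the 20 combinations, with a median of 0.973, 9 above 1 and 10 below. The library totals gave ratios of 0.752, 2.45, 1.78 and 0.405 in replicates 1 to 4, and the sum of the 5 gave 0.880, 1.22, 1.68 and 0.581. In every pair the tRNA sum moved in the direction of the library total and by less. mt-Tl1 had 864 ± 326 CPM (SD, n = 4) in activated and 1007 ± 692 CPM in control libraries, and mt-Tv 316 ± 86.6 and 339 ± 159 CPM. Activated was above its control in CPM in 3 of 4 pairs for mt-Tm and mt-Tl2 and in 2 of 4 for the others.

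The control libraries of the 2 times give the difference between times without activation. The log2 fold change, 5 min over 30 min, was 0.11 (SE 0.44) for mt-Tl1, with an adjusted p of 0.997 by edgeR, and 0.11 (SE 0.64) for mt-Tl2, also at 0.997. It was -0.81 (SE 0.57) for mt-Tk, with an adjusted p of 0.790 by edgeR. mt-Tm gave 0.40 (SE 0.46) with an adjusted p of 0.941 by edgeR, and mt-Tv 0.63 (SE 0.45) with 0.793. None of the 5 passed the test, where 0.174% of transcripts, 5 of 2871, were called. mt-Tk was the only member with a value below 0, and its share of the 5 was higher in the controls at 30 min than in those at 5 min.

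The noCre libraries, in which no tagged FMRP should be purified, held 15 tags of the 5 tRNAs in 6478. mt-Tl1 gave 1, 0 and 8 tags in replicates 1 to 3, mt-Tm 0, 0 and 4, mt-Tl2 0, 0 and 1, mt-Tv 1, 0 and 0, and mt-Tk 0 in each. Each member had fewer tags in every noCre library than in any Cre-positive library. The mean was 3 against 72.7 for mt-Tl1, 1.33 against 36.1 for mt-Tm, 0.333 against 26.9 for mt-Tl2, 0.333 against 23.2 for mt-Tv and 0 against 30.6 for mt-Tk. A two-sided exact permutation test of 3 against 16 libraries gave p = 0.00206 for each of the 5, not adjusted, which is the smallest p its 969 arrangements allow. Of the 2871 transcripts 99.7% were lower by the same test, so the count of 5 of 5 is that of nearly all transcripts. The noCre libraries held at most 5557 tags and the Cre-positive libraries at least 20456, and transcripts were filtered on the Cre-positive libraries only. The test could therefore hardly come out otherwise, and nothing about the members is read from its p-value.

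As a share of the library, the shallow noCre libraries did not separate the members from the Cre-positive level. mt-Tl1 was 0.144% of the tags of noCre replicate 3 (8 of 5557, 95% Wilson interval 0.0730% to 0.284%), within the 0.0275% to 0.328% of the Cre-positive libraries. mt-Tm was 0.0720% (4 of 5557, 0.0280% to 0.185%), within the 0.0105% to 0.117% of the Cre-positive libraries. mt-Tk at 0 of 6478 tags in the 3 libraries together allows a share of up to 0.0463%, which lies above the mean Cre-positive share of 0.0416%. These intervals cover counting error only. At the mean Cre-positive share of each member, the 6478 noCre tags would hold 5.79 tags of mt-Tl1, 2.59 of mt-Tm, 2.69 of mt-Tk, 2.27 of mt-Tl2 and 1.62 of mt-Tv, and they held 9, 4, 0, 1 and 1. Differences in share of this size were not detectable at this depth. The exact permutation test on mean shares, which passed 2 of the 5 (mt-Tk and mt-Tl2) and 59.9% of all 2871 transcripts at an unadjusted p under 0.05, follows the zeros: it passed 1382 of the 1384 transcripts with no noCre tag. It is therefore not read as a lower share.

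Mitochondrial DNA of the mouse holds 22 tRNA, 2 ribosomal RNA and 13 protein-coding genes in the RefSeq table. The members' identifiers fall in a run of 37 consecutive Ensembl numbers, ENSMUST00000082387 to ENSMUST00000082423, which is described without gene names because no table used here pairs them. Of the run, 36 are listed in a library and 31 of these are not members. The 26 non-members that passed the filter had slopes of 0.32 to 0.80 with a median of 0.61, below the median of 1.02 over the other transcripts, and 13 were under 0.6. Only 2 of the 26 were below mt-Tv, the member with the highest slope. Their median slope was 0.73 at 5 min and 0.56 at 30 min. It was lower at 30 min in 18 of the 26 and higher in 8, and it was lower in all 5 members. They spanned 0.5 to 1079 mean tags over the 31 listed, and 17 of the 31 had noCre tags, 61 in all.

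The transcripts whose CPM followed the geometric mean of the 5 members most closely over the 16 Cre-positive libraries were ENSMUST00000082410 (Spearman 0.93) and ENSMUST00000082399 (Spearman 0.89). Both lie in the run of identifiers. They had 7 to 46 and 8 to 49 tags per library, slopes of 0.33 and 0.43, and 0 and 1 noCre tags. The sixth transcript called higher at 30 min with the replicate block, ENSMUST00000083211, is outside the run. It had 14 to 88 tags, a slope of 0.41 over all libraries, 0.72 at 5 min and 0.35 at 30 min, and 16 noCre tags, more than the 15 of the 5 members together.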

How the data were processed

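The deposited values are counts of FMRP CLIP tags per transcript and library. The submitters' processing notes name mm10, cutadapt and STAR, without versions or roles, and how tags were collapsed, assigned and filtered is not given in the sources used here. Transcripts missing from a library's file were taken as 0. Members and lists were chosen with earlier results of these data known.

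Tags of the 16 Cre-positive libraries were fitted in R 4.3.3 with edgeR 4.0.16 (TMM scaling, filterByExpr with a minimum count of 10, group means, quasi-likelihood test, Benjamini-Hochberg over all 2871 transcripts, threshold 0.05), tested first on simulated data. Alternatives used DESeq2 1.42.0, limma 3.58.1 and other settings. Permutation tests used scipy 1.17.1. Slopes used log2(tags + 0.5). All 5 members are named, plus the 2 transcripts closest to them in CPM.

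Deviations of activated and control libraries with the same replicate number correlated at 0.201 to 0.687 in the 8 pairs (334 transcripts averaging 50 tags or more), so the numbers were treated as pairs within a time. Over all 2871 transcripts the correlations were -0.0017 to 0.290. Controls of the 2 times, at -0.390 to 0.299, share only the number. That range overlaps with the 0.201 to 0.467 of the 30 min pairs. Libraries with different numbers were not compared, so the pairing remains an assumption of the fits with the replicate block.

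The upper limit on the share of an undetected transcript was 0.0147% (3 tags) in the shallowest and 0.000879% in the deepest Cre-positive library. Scaled values assume that most transcripts do not change.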

Additional observations from a re-analysis of the deposited data

Results flagged for a closer look

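Of 40 sets of 4 values checked (5 tRNAs, 4 groups, tags and share of tags), 1 held a value set apart from the rest. mt-Tv had 37 tags in control replicate 2 at 30 min, against 10, 12 and 14 in the other 3 libraries of that group. The gap to the nearest was 0.852 of the whole range, above Dixon's critical value for 4 samples. Chance sets apart about 1 in 20 groups. That library was the deepest at 30 min, with 192471 tags, and its mt-Tv level was 287 CPM, beside 266 CPM in replicate 1.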

How the results depend on the processing

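At 30 min the median log2 fold change of the 5 members, 1.29, became -0.25 with log2 library total as a covariate. Under that fit mt-Tl1 turned to -0.093, mt-Tm to -0.25, mt-Tk to -0.83 and mt-Tl2 to -0.51, and with the replicate block and the covariate together mt-Tk turned to -0.23. Leaving out 1 library at a time gave a median of 0.67 to 1.93, and -0.14 (without activated replicate 1) to 2.09 for mt-Tl2. The median slope of 0.23 on total tags was 0.043 in the 30 min libraries alone, and 0.16 to 0.36 with 1 library left out. On the number of transcripts listed the median slope was 0.48. That number ranged less, from 7768 to 29204, so the 0.48 is not comparable with a slope on total tags. The noCre count of 5 of 5, from a test that 99.7% of all transcripts passed, stayed at 5 without any 1 noCre library. As a share of tags it was 2 of 5, beside 59.9% of all transcripts, a test that follows the noCre zeros and is not read as a lower share, and mt-Tv turned to 0.0126 percentage points. The cause of the other changes was not tested.

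With the replicate block the 5 min log2 fold changes were -0.04 for mt-Tl1, -0.14 for mt-Tl2, 0.01 for mt-Tk, 0.09 for mt-Tm and 0.07 for mt-Tv, and 0 members were called. In the control comparison the block moved the count of all calls from 5 to 8 and called 0 members. No alternative called a member in either comparison. Uncalled members changed sign in 21 of 133 values at 5 min and in 7 of 133 between control times. Counts thinned to 1 depth left 364 transcripts and no value for mt-Tm and mt-Tv. At 30 min these thinned counts gave log2 fold changes of 1.2 for mt-Tl1, 1.5 for mt-Tk and 1.9 for mt-Tl2, with none called. On unthinned counts at 30 min the 5 members had 1.37 to 1.7 by DESeq2 and 0.43 to 1.18 by limma, with none called. Over all transcripts the control comparison called 0 to 18 under the alternatives, against 5.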
